A study of Mus musculus with 30 samples.

Results

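The nuclear-encoded oxidative phosphorylation genes, the genes of the nuclear genome that encode subunits of the respiratory chain and of ATP synthase, were followed in the nucleus accumbens of mice after nerve injury and antidepressant treatment. They were chosen by symbol (names beginning with Nduf, Sdh, Uqcr, Cox4 to Cox8 or Atp5, without pseudogenes) and by a mean of at least 5 CPM over the libraries (a gene's counts divided by the library total in M counts). Of 55401 gene IDs in the count table, 86 matched the symbols and 79 reached this level. These 79 members were 37 of complex I, 4 of complex II, 8 of complex III, 12 of complex IV and 18 of complex V, and they lay on 19 chromosomes. The members nearest above the limit were Cox6c2 at 7.31 CPM, Atp5s at 24.9 CPM and Atp5l at 26.1 CPM. The genes nearest below it were Cox4i2 at 2.51 CPM, Cox6a2 at 1.75 CPM and Cox6b2 at 1.64 CPM.

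The respiratory chain sits in the inner mitochondrial membrane. Complex I takes electrons from NADH and complex II takes them from succinate, and both hand them to coenzyme Q. Complex III passes them on to cytochrome c, complex IV passes them to oxygen, and complex V uses the proton gradient built along the way to make ATP. Most subunits are encoded in the nucleus and imported, while a core set is encoded by mitochondrial DNA, and active neurons draw most of their ATP from this chain.

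Nucleus accumbens tissue, from the ventral part of the striatum, was punched on both sides from male C57Bl/6J mice, and polyadenylated RNA was sequenced with 1 animal per library. All mice had surgery, either tibial SNI (spared nerve injury, used to model neuropathic pain) or a sham operation, and 4 weeks later 3 weeks of intraperitoneal injections given 2 times a day. The groups were SNI with tianeptine at 30 mg/kg (6 mice), SNI with desipramine at 15 mg/kg (4 mice), SNI with saline (5 mice), sham with tianeptine (6 mice), sham with desipramine (4 mice) and sham with saline (5 mice), the last being the control. Tianeptine is an antidepressant and an agonist of the mu-opioid receptor, while desipramine, a tricyclic, inhibits the reuptake of noradrenaline. The labels used here give no ages.

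The libraries fell into 2 sets by the numbering in their names. Set 2 holds replicates 5 and 6, which are 6 saline and tianeptine libraries of 98.0 to 120.7 M counts. Set 1 holds replicates 1 to 4 of every group, which are 24 libraries of 24.5 to 37.7 M counts. Within set 1 the library numbers ran in blocks by group, so the order of handling and the group cannot be told apart. The tissue label was checked against 9 markers of medium spiny neurons, the main neurons of this region, and none was at 0 in any group. Their summed level was 3152 to 6422 CPM in every library except SNI desipramine library 2, where it was 775 CPM, and SNI desipramine library 3, where it was 2852 CPM. In a bulk sample, fewer cells of a type and less RNA per cell cannot be told apart.

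The members were abundant, and their levels per length spanned a wide range within each complex. Levels between genes were compared as mean CPM per kilobase (kb) of exon over the 30 libraries. The deposited FPKM use the whole gene span, introns included, and no source used here says whether intron reads were counted. Such reads would raise the values per kb of exon most in genes with long introns. The median was 45.8 CPM per kb over all 79 members, 40.5 for complex I, 49.2 for complex II, 58.5 for complex III, 70.9 for complex IV and 36.4 for complex V. In complex I the highest were Ndufa4 at 92.3 and Ndufa8, an accessory subunit, at 84.8 CPM per kb. Ndufa4 is grouped here by its name, although its protein is now placed in complex IV. Ndufs1, the large iron-sulfur subunit that receives electrons from the NADH site, had 14.1 CPM per kb, and Ndufab1, the mitochondrial acyl carrier protein, had 5.73 CPM per kb. In complex II, Sdha, the flavoprotein that oxidises succinate, had 93.0 CPM per kb. Sdhb, the iron-sulfur subunit, had 45.8 CPM per kb, and the membrane anchors Sdhc and Sdhd had 27.0 and 52.5 CPM per kb.

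In complex III the small subunits Uqcr10 and Uqcr11 led with 104 and 101 CPM per kb, and Uqcrfs1, the Rieske iron-sulfur protein, had 61.2. In complex IV the small subunits Cox8a and Cox6a1 led with 252 and 228 CPM per kb. In complex V the catalytic core subunits Atp5a1 (alpha) and Atp5b (beta) had 207 and 184 CPM per kb. A higher value, 300 CPM per kb, belonged to ENSMUSG00000116933.1, 1 of the 2 gene IDs named Atp5o. Its span covers Donson, Cryzl1 and Itsn1, so its counts are uncertain, and by the deposited FPKM it ranked 18 of the 18 in complex V. The 3 genes for the same mature protein, subunit c of the rotor ring, differed in level, with 68.7 CPM per kb for Atp5g3, 21.1 for Atp5g2 and 12.5 for Atp5g1. Atp5g1 stood above Atp5g2 in CPM without length (61.4 against 35.4) and in deposited FPKM (9.0 against 3.73). The order of these 2 therefore depends on the scale, while Atp5g3 was the highest on each.

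**Figure D1:**
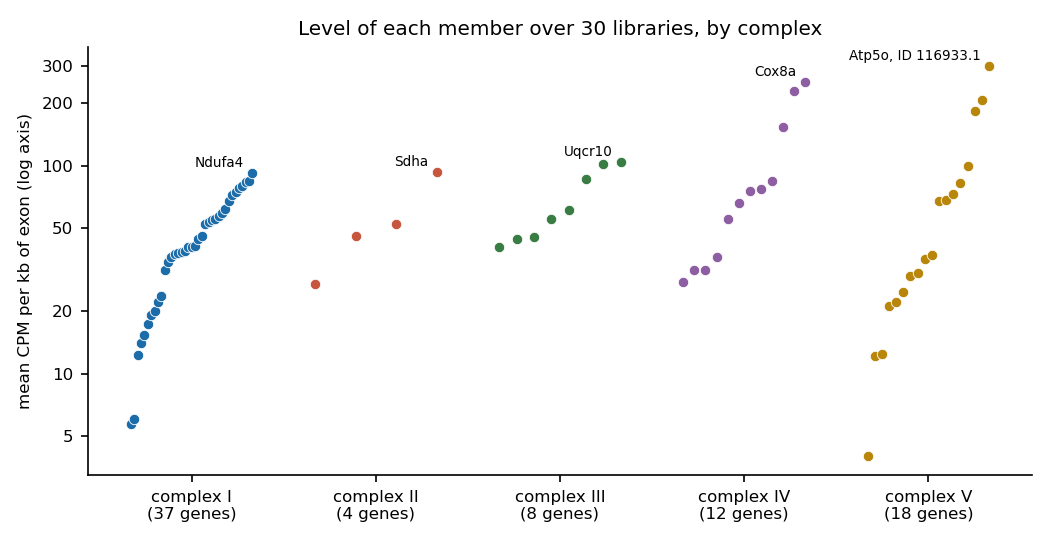
Each point is 1 member, placed by complex and by its mean CPM per kilobase of exon over the 30 libraries (log axis), with the highest of each complex named. Levels ran from 4.04 to 300 CPM per kb, and the medians of the complexes, 36.4 to 70.9, lie close to each other by comparison.

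For complex IV the alternative isoforms, most of them known from heart, muscle, lung or testis, stood far below their counterparts. The member exceeded the other isoform per kb of exon 26.5-fold for Cox4i1 over Cox4i2, 88.5-fold for Cox6a1 over Cox6a2, 104-fold for Cox6b1 over Cox6b2, 39.3-fold for Cox7a2 over Cox7a1, 71.7-fold for Cox7b over Cox7b2 and 674-fold for Cox8a over Cox8b. Cox6a2, the heart and muscle form, was the only 1 of these low isoforms that passed a test between groups. It fell by 0.73 on the log2 scale in SNI against sham mice on desipramine (log2 fold change -0.73 ± 0.19, SE, edgeR adjusted p = 0.0181), in libraries whose neuronal marker levels are given with that comparison. Cox8b was too low to test and reached 1.38 CPM in sham tianeptine library 6. The summed level of 4 choroid plexus markers was 662 CPM in that library and at most 70.8 CPM in the others, and its part in the Cox8b value was not tested.

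Promoters are shown for their letters only. Whether these bear on the joint movement of the members by library, described further on, was not tested. RefSeq promoters (GRCm38.p6, the same build as mm10) were taken as 300 bases, from 250 before to 50 after the start. Matching by Ensembl ID, symbol or synonym gave 65 different promoters for the 79 members. Letters of 3 motifs were searched on both strands in full: GCGC, AT and GCGC in a row for NRF1, CCGGAAG for the ETS family that includes GABP, and AAGATGGC for YY1, all of them factors known from work on respiratory genes. The NRF1 letters stood in 5 member promoters (7.69%) and in 0.977% of 27025 promoters. The ETS letters stood in 15 (23.1%) against 9.12% of all, and the YY1 letters in 9 (13.8%) against 2.88%, with 7 of the 9 in complex I. At least 1 of the 3 was present in 27 member promoters (41.5%) and in 12.3% of all. A match describes the letters in this window and not a bound site. The promoters of Cox6a1 (chr5:115348909-115349208, minus strand) and Atp5k (chr5:108434350-108434649, minus strand) hold both the NRF1 and the ETS letters, in capitals, with the ETS letters read as CTTCCGG. Those of Ndufb2 (chr6:39592315-39592614, plus strand) and Sdha (chr13:74350191-74350490, minus strand), members that differed between groups below, hold none of the 3.
Cox6a1: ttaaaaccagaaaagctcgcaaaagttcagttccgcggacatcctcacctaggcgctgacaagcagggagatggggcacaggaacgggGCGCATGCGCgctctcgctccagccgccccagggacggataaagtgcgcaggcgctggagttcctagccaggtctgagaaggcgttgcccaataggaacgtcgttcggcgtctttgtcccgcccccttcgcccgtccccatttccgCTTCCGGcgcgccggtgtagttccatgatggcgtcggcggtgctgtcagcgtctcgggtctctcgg
Atp5k: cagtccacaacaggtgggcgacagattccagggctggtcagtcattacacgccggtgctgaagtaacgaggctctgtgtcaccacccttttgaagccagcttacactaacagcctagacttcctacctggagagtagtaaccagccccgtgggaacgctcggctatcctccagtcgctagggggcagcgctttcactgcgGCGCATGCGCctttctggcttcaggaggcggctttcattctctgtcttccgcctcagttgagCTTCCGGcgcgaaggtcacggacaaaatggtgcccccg
Ndufb2: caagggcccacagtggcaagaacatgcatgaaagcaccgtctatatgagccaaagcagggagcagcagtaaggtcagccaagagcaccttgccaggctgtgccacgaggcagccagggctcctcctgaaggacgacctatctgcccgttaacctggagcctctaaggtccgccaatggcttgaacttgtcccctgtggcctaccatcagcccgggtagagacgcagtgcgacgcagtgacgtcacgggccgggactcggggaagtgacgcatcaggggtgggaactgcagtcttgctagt
Sdha: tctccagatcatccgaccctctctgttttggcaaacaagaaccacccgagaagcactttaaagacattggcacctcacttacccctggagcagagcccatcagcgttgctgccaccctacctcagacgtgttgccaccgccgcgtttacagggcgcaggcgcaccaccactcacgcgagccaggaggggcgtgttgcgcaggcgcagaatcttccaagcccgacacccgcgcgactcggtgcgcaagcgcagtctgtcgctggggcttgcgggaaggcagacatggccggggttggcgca

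The members moved together by library, and the library set separated their joint level by more than any group did. In set 2 against set 1, 71 of the 79 members were lower, with a median log2 fold change of -0.29. With edgeR, 65 were called lower and 3 higher at an adjusted p under 0.05, against 15.8% of all 23736 genes called lower and 16.5% called higher. Atp5b, the catalytic beta subunit, ran from 571 over a median of 601 to 678 CPM in the 6 set 2 libraries, and from 735 over 818 to 944 CPM in the 24 set 1 libraries. The sets did not overlap, and Atp5b fell by 0.43 on the log2 scale (-0.43 ± 0.05, SE, adjusted p = 1.18e-07). Cox6b1, a peripheral subunit of complex IV, ran from 77.1 over 79.1 to 85.6 CPM in set 2 and from 105 over 112 to 142 CPM in set 1, again without overlap.

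By complex, 32 of 37 members of complex I were called lower in set 2, with a median of -0.27 on the log2 scale. All 4 of complex II and 7 of 8 of complex III were called lower, with medians of -0.23 and -0.29. In complex IV 10 of 12 and in complex V 12 of 18 were called lower, with medians of -0.35 and -0.30. Uqcrb, a small subunit of complex III, was the exception in its complex at -0.06 ± 0.06 (adjusted p = 0.421). The 3 called higher were Cox7c, a small complex IV subunit (0.30 ± 0.08), Atp5g2 (0.23 ± 0.05) and Atp5l, subunit g of ATP synthase (0.20 ± 0.05). The largest shift was that of Cox6c2, an intronless near copy of Cox6c whose reads may be split between both (-1.33 ± 0.09). Of the 13 mRNAs of mitochondrial DNA 11 were called lower and 1 higher in set 2, with a median of -0.62 and a share of counts of 1.104 to 1.256%, against 0.991 to 1.98% in set 1. All 4 oligodendrocyte markers were lower in set 2 and 3 of them passed, with mean scores of -0.267 ± 0.131 in set 2 and 0.067 ± 0.219 in set 1 (SD, n = 6 and 24), and whether either bears on the members was not tested. No desipramine library is in set 2, and the set term was kept in every test that follows.

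**Figure D2:**
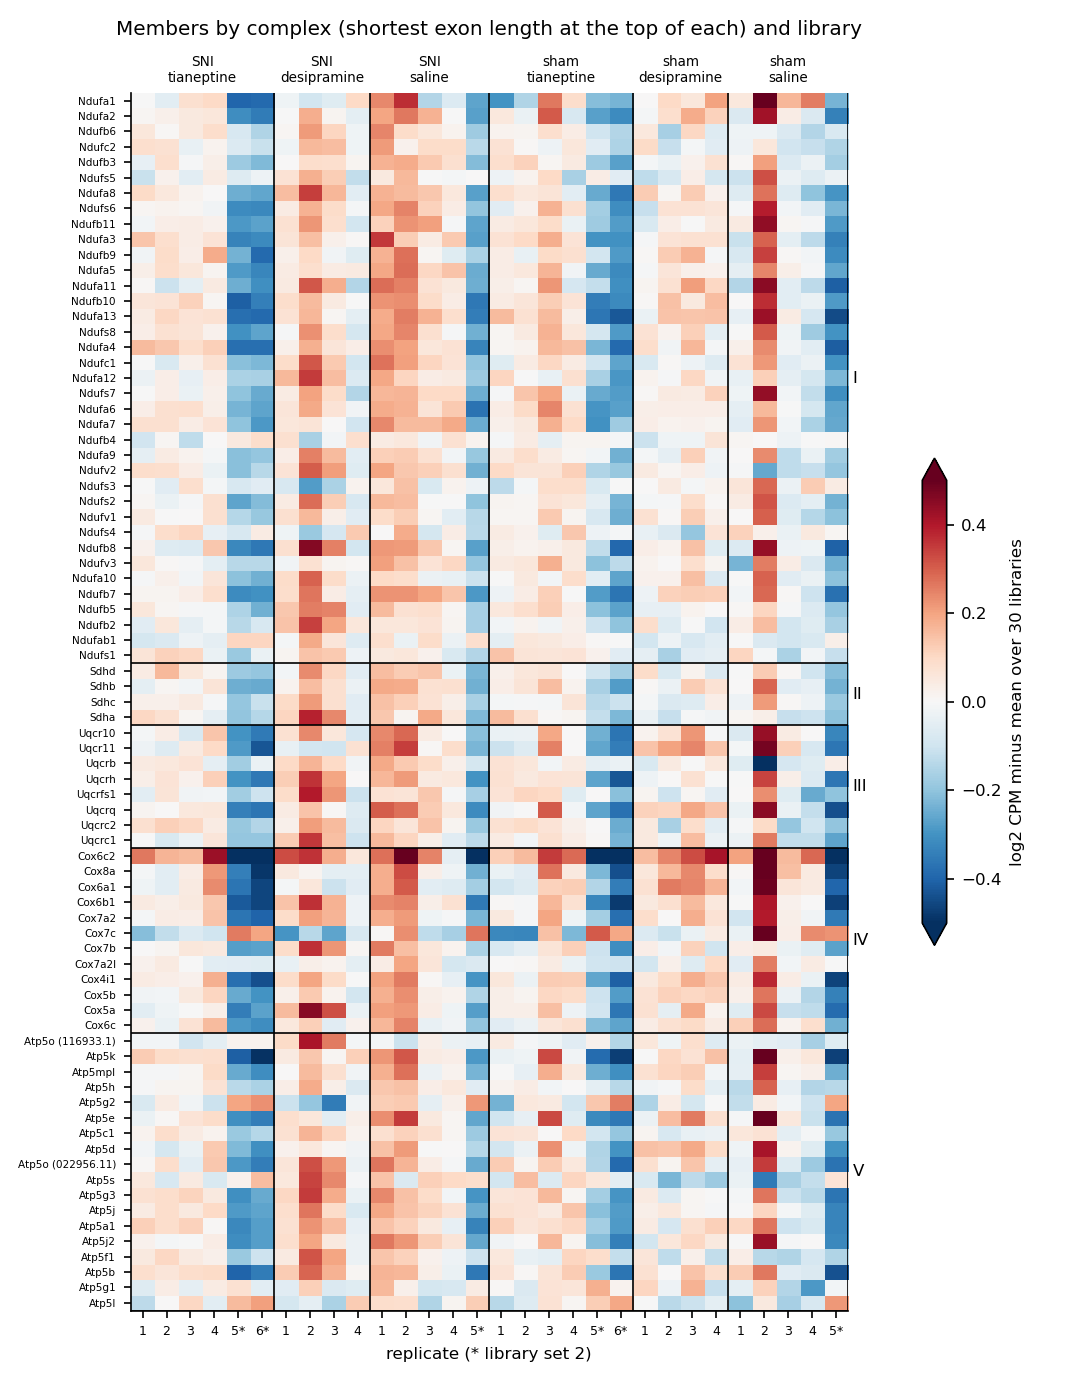
Rows are the 79 members by complex, columns the 30 libraries by group, and colour the log2 CPM minus the mean of the member over all libraries, with stars on set 2 libraries. Most rows are blue in set 2 and red in sham saline library 2 and SNI desipramine library 2, where 67 of the 79 members had their highest value.

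The same joint movement was seen within set 1. A member score, the mean of the centred log2 CPM of all 79, was -0.213 ± 0.040 in set 2 (SD, n = 6) and 0.053 ± 0.075 in set 1 (SD, n = 24). The highest scores were 0.247 in sham saline library 2 and 0.185 in SNI desipramine library 2. Of the 79 members, 40 had their highest value of the 30 libraries in sham saline library 2 and 27 in SNI desipramine library 2, and 65 had their lowest in a set 2 library. Sham saline library 2 was not high throughout, since it was the lowest of set 1 for Atp5s, Ndufv2 and Uqcrb. It also had the lowest share of counts from mitochondrial DNA, 0.991%, and a ratio of member to mitochondrial counts of 0.935, against 0.380 to 0.607 in the other libraries. SNI desipramine library 2 was the library with the lowest medium spiny neuron markers. Whether these features bear on the member levels was not tested.

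Over the residuals from the group means in set 1, the first principal component held 64.4% of the variance, with loadings of 1 sign for 75 members and of the other for Ndufb4, Ndufs4, Uqcrb and Atp5s. Scores of the complexes were correlated within groups, from r = 0.68 for complexes II and IV to r = 0.98 for complexes I and V (n = 24 libraries, which share their scaling and depth). Without sham saline library 2 the lowest of the 10 pairs was 0.48 and the highest 0.98. The within-group SD of log2 CPM had a median of 0.102 over the members. It was lowest for Atp5c1, the gamma subunit that turns inside ATP synthase (0.047), and highest for Ndufa1, a small accessory subunit of complex I (0.176). Within the other complexes it was highest for Sdha (0.099), Uqcr11 (0.145), Cox6c2 (0.175) and Atp5e, the epsilon subunit (0.168).

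Other lists moved with the member score to different degrees. Within groups of set 1 (n = 24 libraries), r was 0.96 for mitochondrial import and transport genes, 0.94 for stress response genes, 0.92 for assembly factors of complex V, 0.90 for glycolysis and 0.87 for mitochondrial ribosomal proteins. Without sham saline library 2 these were 0.91, 0.86, 0.88, 0.79 and 0.69. For assembly factors of complex I r was 0.05 (-0.14 without that library), for regulators of mitochondrial biogenesis -0.45 (-0.40) and for the 13 mRNAs of mitochondrial DNA -0.65 (-0.22). The points share library, depth and scaling, so these values describe the libraries only.

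Set beside this spread, the group means of the joint level lay close together. Mean member scores in set 1 were 0.030 ± 0.015 for SNI tianeptine, 0.071 ± 0.088 for SNI desipramine, 0.105 ± 0.079 for SNI saline, 0.044 ± 0.045 for sham tianeptine, 0.033 ± 0.030 for sham desipramine and 0.036 ± 0.141 for sham saline (SD, n = 4 each). The ranges of all 6 groups overlapped, with the widest in sham saline (-0.057 to 0.247) and the narrowest in SNI tianeptine (0.015 to 0.051). The SNI saline group had the highest set 1 mean for 35 of the 79 members and the lowest for none. The members moved together by library, and the share of all genes is not given here, so this count is no result about the group. The ratio of the highest to the lowest group mean was small, a median of 0.13 on the log2 scale, from 0.03 for Ndufv1 to 0.40 for Cox7c.

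**Figure D3:**
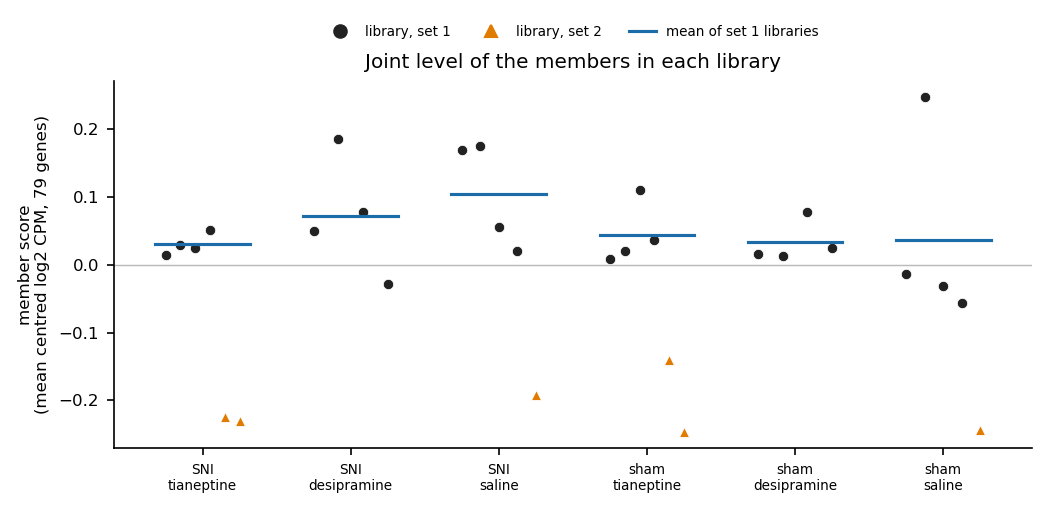
Each point is the member score of 1 library, the mean centred log2 CPM of 79 genes, by group, with circles for set 1, triangles for set 2 and a line at the set 1 mean of the group. All 6 set 2 libraries lie below every set 1 library, and group means in set 1 lie between 0.030 and 0.105.

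The effect of nerve injury was compared within each treatment. On desipramine, 4 members passed in SNI against sham mice, all higher: Atp5s, Ndufb2, Sdha and Ndufb5. These were 4 of 79 members called higher, fewer in proportion than the 7.22% of all genes called higher in this comparison (4.08% were called lower and 11.3% in either direction), so the count is no result about the members as a group. Of the 79, 52 were higher and 27 lower, with a median log2 fold change of 0.04 (0.01 over all genes tested). At an unadjusted p under 0.05 were 24.1% of the members and 27.6% of all genes.

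Atp5s (ENSMUSG00000054894.6, chr12:69724950-69744660, mm10, plus strand) encodes coupling factor B, a regulator associated with ATP synthase and not a core subunit. It had 25.7, 31.3, 29.3 and 24.7 CPM in SNI desipramine libraries 1 to 4, against 23.6, 21.2, 22.6 and 21.9 CPM in sham desipramine libraries 1 to 4. The groups did not overlap, and Atp5s was higher by 0.32 ± 0.08 (log2, SE, edgeR adjusted p = 0.0153). Sdha (ENSMUSG00000021577.14, chr13:74322254-74350280, minus strand) had 411, 499, 451 and 368 CPM in SNI desipramine mice, against 373, 352, 380 and 377 CPM in sham desipramine mice. SNI library 2 was the highest and SNI library 4 lay inside the sham range, with a difference of 0.22 ± 0.07 (adjusted p = 0.0383). Its overlapping gene Gm16125 makes its counts less certain, since no source used here gives the strand setting of counting.

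Ndufb2 and Ndufb5 are accessory subunits of the membrane arm of complex I. Ndufb2 (chr6:39592574-39603382, plus strand) had 37.7, 43.3, 39.1 and 35.6 CPM in SNI desipramine mice and 36.3, 32.7, 34.1 and 31.9 CPM in sham desipramine mice. SNI library 4 lay below sham library 1, and the difference was 0.21 ± 0.06 (adjusted p = 0.022). Ndufb5 (chr3:32736990-32751566, plus strand) had 83.7, 91.1, 90.5 and 73.3 CPM in SNI mice and 74.2, 74.1, 77.2 and 76.3 CPM in sham mice. SNI library 4 was the lowest of all 8, and the difference was 0.17 ± 0.05 (adjusted p = 0.0456, and 0.0585 with limma-voom). Ndufb2 overlaps Braf and Ndufb5 overlaps Mrpl47, which limits their counts in the same way.

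The calls rested on few libraries. Without SNI desipramine library 2 or without library 3 no member passed and, without library 2, the median of the members became -0.00, without libraries 2 and 3 together none passed and the median became -0.04, and without library 4 17 passed (15 higher, 2 lower). Leaving out sham desipramine library 1, 2, 3 or 4 left 2, 1, 2 and 1. The share of all genes called in each of these fits is not given here, so the counts are no result about the members. The summed markers of medium spiny neurons were 3872, 775, 2852 and 5829 CPM in SNI desipramine libraries 1 to 4, and 4177, 5603, 3192 and 6290 CPM in the sham desipramine libraries. The 9 markers of septal, preoptic and hypothalamic neurons summed to 89.5, 158, 161 and 70.9 CPM in the SNI libraries and 70.7, 51.0, 65.3 and 65.5 CPM in the sham libraries. Summed markers of other cells also differed without overlap: astrocytes at 748 to 928 CPM in SNI and 639 to 742 CPM in sham libraries, and choroid plexus at 47.6 to 70.8 against 19.7 to 43.8 CPM. The list for parvalbumin interneurons (Pvalb, Kcnc1 and Tac1) summed to 466 to 533 against 367 to 436 CPM, again without overlap. Tac1 is also on the medium spiny neuron list, so this sum does not stand for parvalbumin interneurons alone. Cortical excitatory neuron markers summed to 7.01, 22.8, 29.1 and 165 CPM in SNI and 796, 375, 1083 and 23.3 CPM in sham libraries, and the part of these other cells in the calls was not tested. With the medium spiny neuron and septal marker scores in the model no member passed, Atp5s was at 0.16 (adjusted p = 0.939) and Sdha at 0.04 (adjusted p = 0.958).

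Several subunits stood lower in SNI than in sham mice on desipramine without passing. Cox6a1 had 158, 165, 147 and 153 CPM in SNI libraries and 168, 190, 188 and 179 CPM in sham libraries. The groups did not overlap, and the difference was -0.22 ± 0.10 (adjusted p = 0.157). Uqcr11 differed by -0.22 ± 0.09 (adjusted p = 0.128) and Ndufs3, a subunit of complex I, by -0.14 ± 0.06 (adjusted p = 0.17). Libraries of the groups did not overlap for 3 members that were higher (Atp5s, Atp5c1 and Ndufs1) and 4 that were lower (Uqcr11, Cox6a1, Atp5d and Cox8a), where 5.49% and 4.47% of all genes did so, and Atp5c1, Atp5d and Cox8a are named after their values were seen. By complex, 27 of 37 members of complex I, 4 of 4 of II, 5 of 8 of III and 12 of 18 of V were higher, and 8 of 12 of complex IV were lower, with a median of -0.02 in complex IV.

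**Figure D4:**
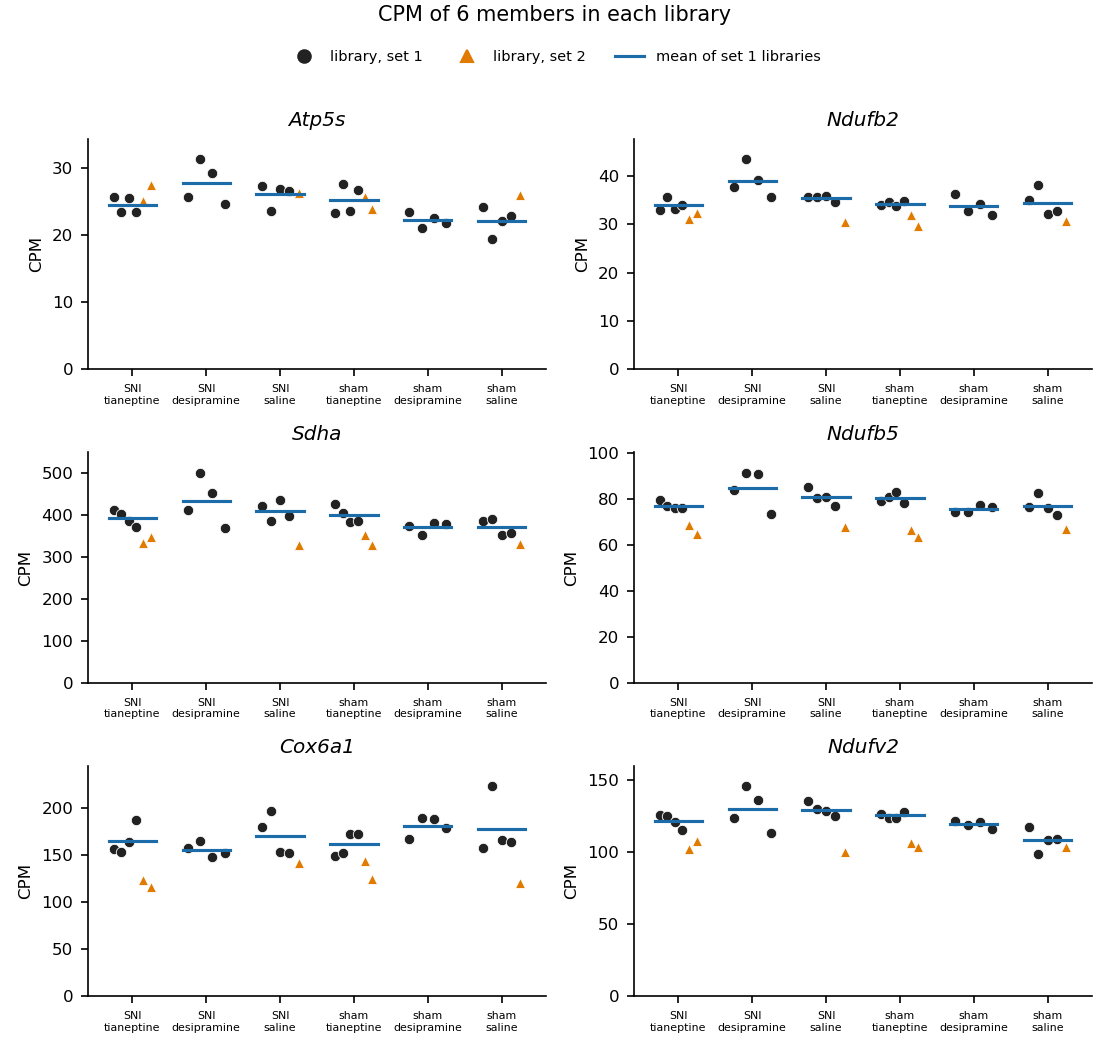
CPM of Atp5s, Ndufb2, Sdha, Ndufb5, Cox6a1 and Ndufv2 in each library by group, with circles for set 1, triangles for set 2 and a line at the set 1 mean. SNI desipramine library 2 is the highest of all 30 for the first 4 genes, and the groups overlap for most comparisons.

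On saline, 69 of 79 members were higher in SNI than in sham mice, with a median of 0.06 on the log2 scale (0.00 over all genes tested), and none passed. With edgeR 0.0% of all genes were called in this comparison, and DESeq2 and limma-voom called no member either. Unadjusted, 11 members had a p under 0.05, all higher (13.9%, against 9.74% of all genes). Of all 23736 genes tested, 1079 were higher and 1232 lower at that p. All 18 members of complex V, all 8 of III and all 4 of II were higher, with 33 of 37 of complex I and 6 of 12 of complex IV. Ndufv2, a subunit of the NADH-oxidising module, had 135, 130, 128, 125 and 100 CPM in SNI saline mice, against 118, 99.0, 108, 109 and 103 CPM in sham saline mice. The set 1 libraries did not overlap, while the set 2 libraries had 100 CPM in the SNI and 103 CPM in the sham group, with a difference of 0.20 ± 0.06 (adjusted p = 0.418). Uqcrb had 44.1, 42.3, 41.2, 39.3 and 36.4 CPM in SNI saline mice and 37.1, 26.7, 36.5, 37.1 and 39.5 CPM in sham saline mice (0.19 ± 0.07, adjusted p = 0.437).

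The groups overlapped for Uqcrb, which was lowest in sham saline library 2, and without that library the median of the members over the comparison was 0.13. Ndufa7, an accessory subunit, had 67.5, 63.9, 63.9, 65.3 and 48.2 CPM in SNI saline mice and 55.1, 66.8, 56.6, 51.2 and 47.9 CPM in sham saline mice (0.15 ± 0.05, adjusted p = 0.437). The groups overlapped through SNI library 5, of set 2, and sham library 2. Cox7c, at -0.17 ± 0.10 (adjusted p = 0.595), was the lowest of the 10 members below 0. Ribosomal protein genes leaned the same way, with 69 of 77 cytosolic and 66 of 78 mitochondrial ones higher and none called. Markers moved with this contrast too, none of them called: all 4 endothelial (summed 107 to 131 CPM in SNI and 126 to 201 CPM in sham libraries), all 4 mural (83.0 to 113 against 98.6 to 185 CPM), all 4 cortical excitatory (10.2 to 826 against 161 to 434 CPM) and all 9 medium spiny neuron markers (3156 to 5770 against 4659 to 6422 CPM) were lower. Their part in the lean of the members was not tested.

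On tianeptine the estimated difference between SNI and sham mice was small for every member. Of 79, 17 were higher and 62 lower, within -0.07 to 0.02 on the log2 scale, with a median of -0.02. edgeR called 0.0% of all genes and no member, and DESeq2 and limma-voom called none. No member had an unadjusted p under 0.05, against 1.21% of all genes. Sdhb, with the smallest p among the members that were lower, was at -0.05 ± 0.05 (adjusted p = 0.9999).

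Over the mean of the 3 treatments, Atp5s was the 1 member that passed in SNI against sham mice (0.17 ± 0.04, adjusted p = 0.0413), where 1.53% of all genes were called higher and 1.84% called in all. It had a median of 25.4 CPM in SNI tianeptine mice (23.4 to 27.6) and 24.8 CPM in sham tianeptine mice (23.3 to 27.6), which overlapped. In SNI saline mice it had 27.4, 23.6, 27.0, 26.6 and 26.4 CPM, against 24.2, 19.4, 22.2, 22.9 and 26.0 CPM in sham saline mice. Sdha (0.11 ± 0.04, adjusted p = 0.0922) and Ndufv2 (0.10 ± 0.03, adjusted p = 0.097) did not pass. Counts with 1 library left out stand here without the share of all genes called in those fits. The count was 11 without SNI desipramine library 4. It was 0 when any 1 of these was left out: SNI tianeptine library 1, 5 or 6, SNI desipramine library 2 or 3, SNI saline library 1, 3 or 4, sham tianeptine library 3, 5 or 6, sham desipramine library 1, 2, 3 or 4, or sham saline library 1, 2, 3 or 4.

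Tianeptine was compared with saline after injury and after sham surgery, and these comparisons share the saline libraries with the injury comparison on saline. After SNI the members were lower on tianeptine in all 12 of complex IV, 35 of 37 of complex I, 4 of 4 of II, 7 of 8 of III and 16 of 18 of V, with medians of -0.10, -0.07, -0.05, -0.07 and -0.06. None passed with edgeR, which called 0.0% of all genes, nor with DESeq2 or limma-voom, and 4 members had an unadjusted p under 0.05 (5.06%, against 2.87% of all genes). Ndufa5, an accessory subunit of the peripheral arm of complex I, had 60.1, 62.6, 61.3, 59.4, 48.4 and 46.9 CPM in SNI tianeptine mice, against 67.3, 71.5, 63.2, 64.9 and 49.6 CPM in SNI saline mice. Within each set the tianeptine values lay below the saline values, and the difference was -0.12 ± 0.05 (adjusted p = 0.9999). Ndufs6, also of complex I, had 36.4, 36.6, 36.4, 35.7, 29.0 and 28.9 CPM in SNI tianeptine mice and 41.4, 42.9, 39.2, 37.1 and 31.6 CPM in SNI saline mice, a difference of -0.14 ± 0.06 (adjusted p = 0.9999). Here too the tianeptine values lay below the saline values within each set, and the libraries of set 2 were the lowest of their group. All 9 medium spiny neuron markers were higher on tianeptine, with none called (summed 3152 to 6051 CPM against 3156 to 5770 CPM), and their part was not tested.

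In sham mice on tianeptine against saline, 45 members were higher and 34 lower, with a median of 0.02. None passed (edgeR, 0.0% of all genes, DESeq2 and limma-voom none). Unadjusted, 4 members had a p under 0.05 (5.06%, against 6.84% of all genes). Cox7c had 24.8, 24.8, 34.4, 26.6, 38.4 and 35.5 CPM in sham tianeptine mice and 30.4, 45.2, 31.7, 36.5 and 36.3 CPM in sham saline mice. Tianeptine libraries 1, 2 and 4 were the lowest, the groups overlapped, and the difference was -0.28 ± 0.10 (adjusted p = 0.714). Ndufv2 leaned the other way at 0.17 ± 0.06 (adjusted p = 0.714). Without sham saline library 2 the median became 0.07, and without sham saline library 4 it became -0.01.

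The test of whether tianeptine acted differently after SNI and after sham gave no call. The interaction was below 0 for 73 of 79 members, with a median of -0.09, and edgeR called 0.0% of all genes. Unadjusted, 4 members had a p under 0.05 (5.06%, against 4.2% of all genes), and DESeq2 and limma-voom called none. Ndufv2 (-0.23 ± 0.08), Uqcrb (-0.22 ± 0.10) and Ndufa7 (-0.16 ± 0.07) had the smallest p (adjusted p = 0.989 each). Without sham saline library 2 the median became -0.15. Over the mean of both surgeries the tianeptine difference had a median of -0.03, 24 members were higher and 55 lower, and edgeR called 0.0% of all genes. Unadjusted, 3 members had a p under 0.05 (3.8%, against 4.74% of all genes). All 12 of complex IV were lower there, with a median of -0.05, and DESeq2 and limma-voom called no member. Without sham saline library 2 the median of the members became 0.01.

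**Figure D5:**
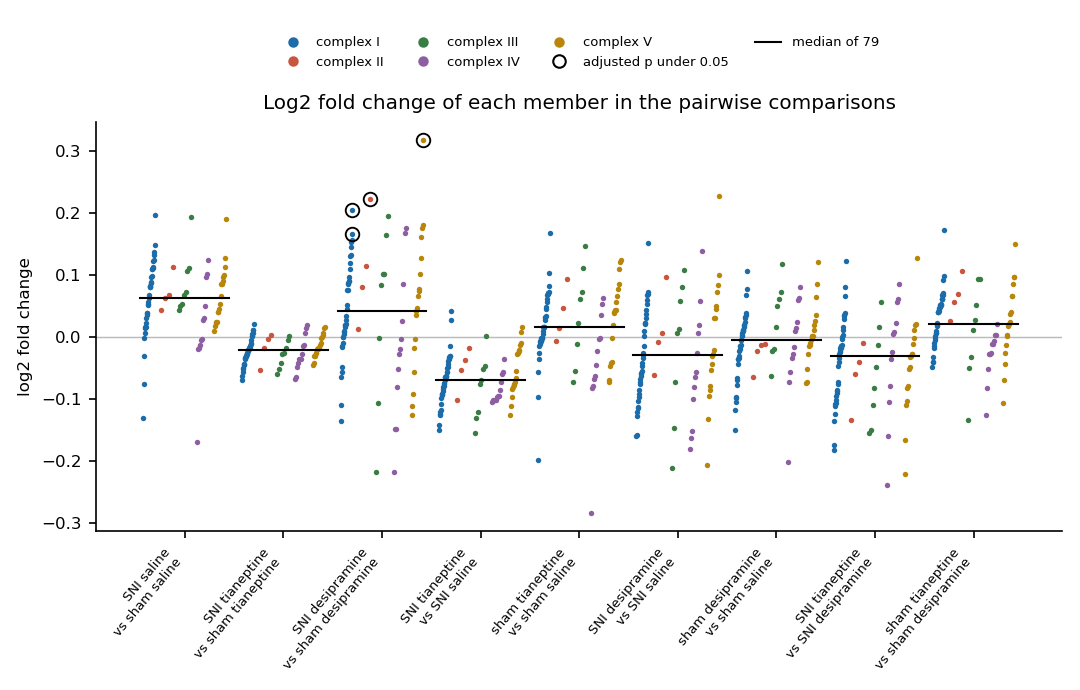
Each point is the log2 fold change of 1 member in 1 of the 9 comparisons between 2 groups, coloured by complex, with a bar at the median of the 79 and rings on the 4 that passed. Medians lie between -0.07 and 0.06, and the rings are all in SNI against sham mice on desipramine.

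Desipramine against saline split the members in both surgeries. After SNI 33 were higher and 46 lower (median -0.03), and after sham 38 were higher and 41 lower (median -0.00). edgeR called no member in either and 0.0% of all genes. Unadjusted, 7 members after SNI had a p under 0.05 (8.86%, against 17.5% of all genes), and 0 after sham (against 7.63% of all genes). DESeq2 called 2 members after SNI, the Atp5o ID ENSMUSG00000116933.1 and Atp5g2, and none after sham, and limma-voom called none in either. Without sham saline library 2 the median after sham became 0.06. That Atp5o ID had 170, 210, 190 and 158 CPM in SNI desipramine mice and 158, 147, 162, 156 and 154 CPM in SNI saline mice. Library 2 was again the highest, library 4 lay inside the saline range, and the difference was 0.23 ± 0.06 (edgeR adjusted p = 0.0899). The other Atp5o ID, ENSMUSG00000022956.11, was at 0.031 ± 0.085 (edgeR adjusted p = 0.887). Atp5g2 was at -0.21 ± 0.07 (adjusted p = 0.122) and Ndufs3 at -0.16 ± 0.06 (adjusted p = 0.184). Without SNI desipramine library 4, edgeR called 4 members after SNI. The shares of all genes called in that fit and by DESeq2 are not given here.

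Over the mean of both surgeries 31 members were higher and 48 lower on desipramine (median -0.02). edgeR called 0, against 0.0295% of all genes (0.0126% lower), DESeq2 called 1 (the same Atp5o ID) and limma-voom 0. Unadjusted, 5 members had a p under 0.05 (6.33%, against 12.5% of all genes). The other Atp5o ID was at 0.028 ± 0.06 (edgeR adjusted p = 0.871). edgeR called 1 without SNI desipramine library 4, and without sham saline library 2 the median became 0.01. Shares of all genes called are not given here for DESeq2 or for left-out libraries. The desipramine by surgery interaction was above 0 for 33 and below 0 for 46 members (median -0.02). edgeR called 0.0% of all genes and no member, and DESeq2 and limma-voom called no member. Unadjusted, 4 members had a p under 0.05 (5.06%, against 12.3% of all genes). Without SNI saline library 2 the median became 0.01. The members of smallest p included Ndufb2 (0.18 ± 0.08, adjusted p = 0.358) and Uqcr11 (-0.27 ± 0.13, adjusted p = 0.388).

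Between the drugs after SNI, 22 members were higher and 57 lower on tianeptine than on desipramine (median -0.03), and edgeR called none, against 1.33% of all genes (1.01% lower). At an unadjusted p under 0.05 were 8 members, all lower (10.1%, against 21.5% of all genes in either direction). DESeq2 called 2 and limma-voom 0. The closest to the threshold were the same Atp5o ID (-0.22 ± 0.06, adjusted p = 0.0561) and Ndufb2 (-0.18 ± 0.05, adjusted p = 0.0665), which are the 2 that DESeq2 called. The other Atp5o ID was at -0.10 ± 0.08 (edgeR adjusted p = 0.498). Ndufb2 had 32.9, 35.6, 33.1, 33.9, 31.0 and 32.4 CPM in SNI tianeptine mice, against 37.7, 43.3, 39.1 and 35.6 CPM in SNI desipramine mice. These did not overlap, as for 1.07% of all genes in that direction, and the highest tianeptine and lowest desipramine library were close to equal (35.55 and 35.58 CPM). The count of members called was 11 without SNI desipramine library 4 (2 higher, 9 lower) and 1 without SNI tianeptine library 6. The shares of all genes called in those fits and by DESeq2 are not given here. The median became 0.01 without SNI desipramine library 2.

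After sham, 53 members were higher and 26 lower on tianeptine than on desipramine (median 0.02). edgeR called none, against 0.0716% of all genes (0.0253% higher, 0.0463% lower), and DESeq2 and limma-voom called none. Unadjusted, 2 members had a p under 0.05 (2.53%, against 12.1% of all genes). Ndufs1 (0.17 ± 0.05, adjusted p = 0.208) and Atp5c1 (0.10 ± 0.04, adjusted p = 0.35) were those 2. No member passed the test for any difference among the 6 groups, where 1.55% of all genes did.

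Members of short and long exon length leaned differently in several comparisons. Exon length is that of the merged exons of a gene and not of 1 transcript, such as 6883 bases for Ndufab1. Across the 79 members the rank correlation of the log2 fold change with exon length was 0.42 for tianeptine against saline after SNI, 0.35 for the same after sham, 0.39 for desipramine against saline after SNI, 0.02 for that after sham and 0.34 for set 2 against set 1. The genes share libraries and are not independent, and exon length may not be the length over which reads were counted. For tianeptine against saline after SNI, the 27 members of at most 1217 bases had a median of -0.09 and the 27 of at least 2147 bases a median of -0.04. Ndufa1 and Cox6c2 are among the short ones and Sdha and Ndufs1 among the long ones.

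The other genes of the pathway were read from lists, and outside the comparison on desipramine few passed. In SNI against sham mice on desipramine, genes on the assembly lists passed for each complex, all higher. They were Ndufaf2 for complex I (0.18 ± 0.05, adjusted p = 0.0221), Sdhaf3 for II (0.45 ± 0.12, adjusted p = 0.0169), Uqcc1 for III (0.36 ± 0.10, adjusted p = 0.0177), Lrpprc and Cox16 for IV and Atpaf2 for V. These were 6 of 60 genes tested on these lists, not all of them assembly factors in the strict sense, against 7.22% of all genes called higher. Among supercomplex and electron carrier genes 4 passed higher and 1 lower of 19, with Coq8a, a kinase-like protein of coenzyme Q synthesis, at -0.41 ± 0.10 (adjusted p = 0.0113). The 13 mitochondrial mRNAs were all higher and none passed. In the tricarboxylic acid cycle 18 of 21 genes were higher and 2 passed, Idh3b and Dlat, both higher. In glycolysis 2 of 18 passed, both lower, Pfkl and Ldha, the lactate dehydrogenase A subunit (-0.59 ± 0.10, adjusted p = 0.0057).

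Among the regulators of mitochondrial biogenesis 3 of 21 passed in SNI against sham mice on desipramine, 2 higher and 1 lower, against 7.22% and 4.08% of all genes: Esrrg, a nuclear receptor of respiratory genes, was higher by 1.06 ± 0.24 (adjusted p = 0.00961), Tfam, the factor that packs and transcribes mitochondrial DNA, was also higher, and Yy1 was lower. The marker levels of the SNI desipramine libraries given above stand beside all of these values. Over the mean of the 3 treatments, where 1.84% of all genes were called, Coq3 (0.20 ± 0.05, adjusted p = 0.0331) of 19 supercomplex and carrier genes, Hspe1 (0.14 ± 0.04, adjusted p = 0.0483) of 17 stress genes, Mrps5 (0.15 ± 0.04, adjusted p = 0.0483) of 78 mitochondrial and Rps15a of 77 cytosolic ribosomal protein genes passed, all higher in SNI. Gal and Tcf7l2 also passed, among 5 septal, preoptic and hypothalamic markers tested. Between the drugs after SNI, where 1.33% of all genes were called, Pdss2 of the same 19, which makes the coenzyme Q side chain, was lower on tianeptine (-0.25 ± 0.05, adjusted p = 0.0292), and so were Gal and Tcf7l2 of those 5.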

How the data were processed

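The authors deposited a table of raw counts per gene, which was used for all tests, and a table of FPKM values. Per the submitters' processing notes, reads were handled with Trim Galore, HISAT2, SAMtools and featureCounts on mm10. No source used here gives versions, annotation or strand setting. The deposited FPKM follow from the counts, the library total and the whole gene span, introns included, and served only to rank levels. Gene names came from GENCODE M21 (54349 IDs matched in full, 792 without the version, 260 unmatched with 0.0509% of counts). CPM used TMM scaling. Tests were robust quasi-likelihood fits in edgeR 4.0.16 (R 4.3.3) over all 30 libraries and 23736 genes left by its filter on low counts, with group and library set as terms and Benjamini-Hochberg adjustment over all genes at 0.05. The fit was tested on simulated data. Alternatives were other scalings, filters, terms and left-out libraries, DESeq2 1.42.0 and limma-voom 3.58.1. No labels tie libraries to shared cages or days, and replicate numbers did not pair the libraries.

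Named genes were, for each comparison, up to 10 members of smallest p that passed, or else the 3 of smallest p in a direction, plus the highest and most variable members of each complex, the isoform sets, and up to 2 genes of each other list. The members and lists were chosen with earlier results of these data known. Of the 79 members 37 overlap another gene, whose reads could be counted with theirs.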

Additional observations from a re-analysis of the deposited data

Results flagged for a closer look

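In 120 sets of values (6 scores and a part of the named genes, each within 1 group of 4 to 6 libraries), 9 had a highest or lowest library farther from its nearest neighbour than Dixon's criterion allows, and chance gives about 1 in 20. The score of complex II was -0.074 in sham desipramine library 2 (nearest 0.003), and that of complex III was 0.123 in sham desipramine library 3 (nearest 0.035).

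In SNI saline library 5, the set 2 library of its group, Ndufb2 was 30.5 CPM (nearest 34.5) and Ndufa7 was 48.2 CPM (nearest 63.9). Atp5s was 23.6 CPM in SNI saline library 2 (nearest 26.4), and Uqcrb was 26.7 CPM in sham saline library 2 (nearest 36.5). Ndufa5 was 62.4 CPM in SNI desipramine library 2 (nearest 60.8). Ndufs1 was 102 CPM in sham desipramine library 2 (nearest 109), and Ndufs6 was 33.4 CPM in sham desipramine library 1 (nearest 37.7).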

How the results depend on the processing

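Median log2 fold changes of the members kept within 0.079 of the reported value, the spread of scores between libraries, in 406 of 410 pairs of comparison and alternative setting. The 4 that did not were -0.039 for SNI against sham on desipramine without SNI desipramine libraries 2 and 3 (0.042 as reported), -0.12 for tianeptine against desipramine after SNI with no library set term (-0.03), and, for the desipramine by surgery interaction (-0.02), -0.11 without SNI desipramine libraries 2 and 3 and -0.13 without sham saline library 2 and SNI desipramine library 2 together, the last setting chosen after the data were seen. The cause was not tested. The limit of 0.079 is wider than every reported median between 2 groups (-0.07 to 0.06). A median could therefore vanish or change sign and still count as kept, so the 406 do not show that the medians were stable.

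Counts of members called under alternative settings stand here without the share of all genes called in the same fit. They describe how stable the calls were and are no result about the members. For SNI against sham on desipramine, 4 members were called as reported. The count was 1 with no filter, with no library set term and in set 1 alone. It was 0 with the marker scores as covariates, without SNI desipramine libraries 2 and 3, and without the 2 libraries named above, and 6 without sham saline libraries 2 and 3. It was 3 with DESeq2 size factors and with upper quartile scaling, 4 with limma-voom and 5 with DESeq2. Ndufb5 lost its call with DESeq2 size factors (adjusted p = 0.0665), upper quartile scaling (0.0576) and limma-voom (0.0585). Leaving out 1 library gave 0 to 17. With the marker scores Ndufs3 turned to 0.021 ± 0.055 (adjusted p = 0.975), against -0.14 as reported.

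Over the mean of the 3 treatments 1 member was called. The count was 0 with no filter, with no library set term, in set 1 alone, with the marker scores, with limma-voom, without SNI desipramine libraries 2 and 3, without sham saline libraries 2 and 3, without sham tianeptine library 6 and without the 2 libraries named above. Leaving out 1 library gave 0 to 11. Tianeptine against desipramine after SNI had 0 calls as reported, 2 with no library set term, 2 with DESeq2, 1 without sham saline libraries 2 and 3, 1 without sham tianeptine library 6, and 0 to 11 without 1 library. DESeq2 gave 2 for desipramine against saline after SNI and 1 over both surgeries, where leaving out 1 library gave 0 to 4 and 0 to 1.

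With the replicate number as a block, the mean over treatments had 0 calls (Atp5s adjusted p = 0.0694), and SNI against sham on desipramine kept 4. Same-numbered libraries correlated from -0.43 to 0.44, over 0.1 in 7 of 36 pairs, so the numbers were not read as pairs. By deposited FPKM Ndufa4 ranked 6 in complex I, and the Atp5o ID with overlapping genes ranked 18 in complex V. All 79 members passed the filter on low counts. What limited the number of calls was not tested.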
